A study of Mus musculus with 16 samples.

Results

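The clustered protocadherins are the 58 genes with symbols beginning Pcdha, Pcdhb or Pcdhg that lie together on mouse chromosome 18, out of 21826 genes for which a largest coding exon was defined. On GRCm38 the 14 Pcdha genes span chr18:36930184-37187661, the 22 Pcdhb genes span chr18:37264938-37524479 and the 22 Pcdhg genes span chr18:37661793-37841873. The rule for membership uses symbol and position alone, with no methylation value, although the family itself was taken up with earlier results of these data known. Every member encodes a protein except Pcdhgb8, which is annotated as a polymorphic pseudogene. CpG methylation was followed over these genes in metaphase II (MII) oocytes, as the share of cytosine calls read as methylated, in 182 bins of 5 kb and in the largest coding exon of each gene. In the Pcdha and Pcdhg genes that exon is the variable exon that sets one isoform apart from the next, and in the Pcdhb genes it holds the open reading frame.

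Clustered protocadherins are cadherin-type adhesion molecules of the cell surface, best known from neurons, where each cell carries its own combination of isoforms and uses it to tell its own processes from those of other cells. Each variable exon has its own promoter. In the alpha and gamma subclusters the chosen variable exon is spliced to constant exons shared by the whole subcluster, whereas the beta genes have no constant exons. In somatic cells promoter choice involves CTCF and cohesin, and CpG methylation of a promoter goes with its silence. In oocytes most CpG methylation lies over gene bodies that were transcribed during oocyte growth, and regions not transcribed tend to stay unmethylated.

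Whole-genome libraries were made by post-bisulphite adapter tagging (PBAT) from pools of MII oocytes of C57BL/6J x CBA/Ca F1 females, and all 16 libraries carry this same genotype. IFC oocytes (4 libraries) came from preantral follicles of prepubertal females grown and ovulated in culture. SO oocytes (5 libraries) came from superovulated prepubertal females, and both groups are labelled as 23 days old. By the study's account the label of IFC counts the time in culture, as the follicles were taken from younger females. IFC and SO thus also differed in the age of the donors and in the hormones given. SOA oocytes (4 libraries) came from superovulated females and IV oocytes (3 libraries) from naturally ovulating females, both 10 weeks old. The hormone dose differed between SO and SOA, so age and dose cannot be told apart in that comparison, and IFC differed from SOA in age as well as in culture. Methylation data hold no transcript levels, so the oocyte label was not checked against marker genes.

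The libraries held 5218053 to 23065411 CpG calls, of which 2502 to 13386 lay in the protocadherin interval. The IFC libraries, SO1, SO2 and SOA1 to SOA3 were the shallow ones, and in the libraries 65.5% to 91.5% of covered positions carried a single call, so the value of 1 exon in 1 library often rests on few calls. Library IV1 stood apart over the interval. Its pooled methylation there was 20.5%, against 14.2% in IV2, 13.9% in IV3 and 13.03% to 17.5% in the other 13 libraries, while over the 300-kb flanks it was 54.9%, within the range of 50.8% to 62.2% over all libraries. In the study's own account IV1 may have held a little DNA from somatic cells, and its part in the values was not tested. Differences between SOA and IV are given with and without IV1.

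In pooled calls each protocadherin subcluster was less methylated than the flanks in every oocyte library. Averaged over the 16 libraries, methylation was 21.3% in the alpha subcluster, 11.5% in the beta subcluster and 8.44% in the gamma subcluster, against 56.3% in the 300 kb on either side. The alpha subcluster lay 35.0 percentage points below the flanks (SD 2.38 over libraries, range -39.6 to -30.9), the beta subcluster 44.8 points below (SD 3.74) and the gamma subcluster 47.9 points below (SD 3.58). All 16 of 16 libraries were below their own flanks for each subcluster, with p = 3.052e-05 in an exact two-sided sign-flip permutation test, the smallest p that 16 libraries allow. Without IV1 the means of these differences were -35.3, -45.3 and -48.4 points. Pooling gives CpG-dense sequence more weight, and the alpha subcluster was not low over its whole length. After the Pcdha12 exon, over 165038 of its 257478 bp, it averaged 45.0%, against 53.3% in the upstream flank. The gap between the alpha and beta subclusters averaged 20.2% and that between the beta and gamma subclusters 30.9%, so the intervening sequence was also below the flanks on average. Just past the gamma subcluster, Diaph1, which encodes a formin that nucleates actin filaments, averaged 86.2%.

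**Figure D1:**
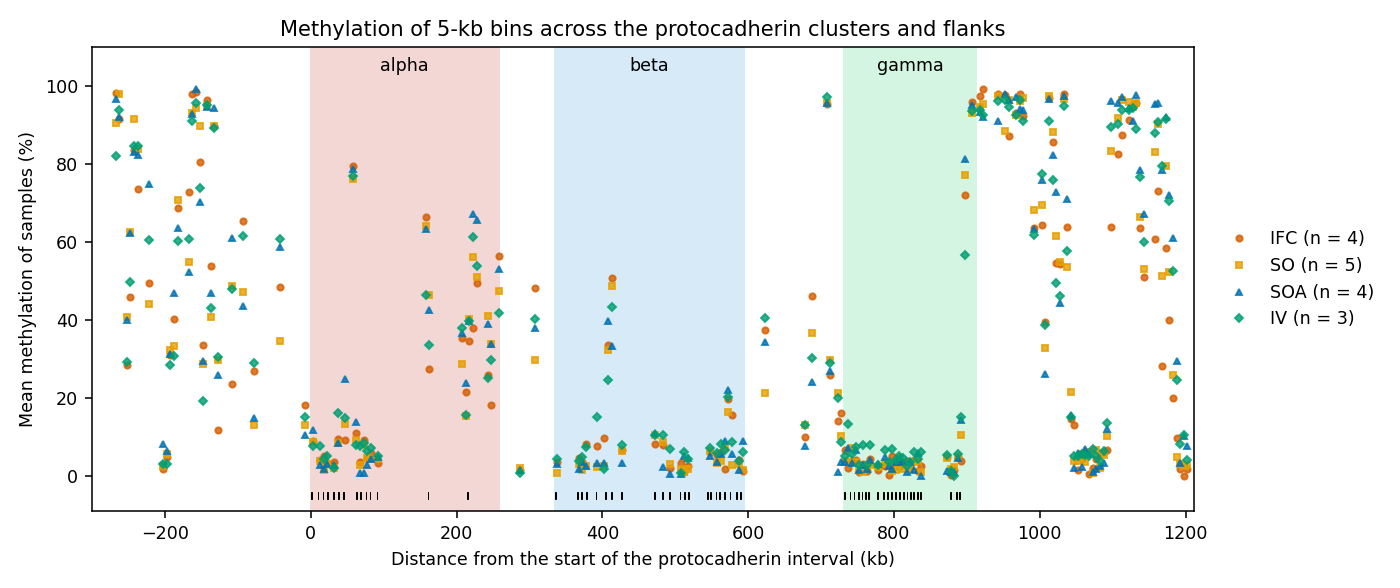
Pooled CpG methylation (%) in 5-kb bins over the protocadherin interval and its 300-kb flanks, drawn along distance from the start of the interval, with 1 point per group as the mean of its libraries, for bins measured in every library. Shading marks the subclusters and black bars the coding exons. Most subcluster bins lie near the bottom of the axis in all 4 groups, apart from methylated bins in the alpha subcluster, between the subclusters and at the 3′ end of the gamma subcluster, while flank bins spread from near 0 to near 100%.

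By bins, 83 of the 182 had at least 5 covered CpG positions in every library. Of these 64 averaged under 20%, 17 lay between 20% and 80% and 2 were over 80%, with a median of 5.14%. Over the genome 200858 bins met the same requirement, 46.4% of them were under 20%, 29.7% were over 80% and the median was 26.3%. CpG-rich bins gave the same picture: of 53 measured bins of the interval with at least 75 CpGs, 49 were under 20% and the median was 4.14%, whereas over the genome 49.2% of such bins were under 20% and the median was 21.0%. The interval bins with fewer CpGs did not: of 30 measured bins with under 75 CpGs, 15 were under 20% and the median was 24.3%. Measured bins elsewhere were thus spread over low and high values, while the CpG-rich bins of the protocadherins were mostly at the low end. The bins left out by this requirement were higher, with medians, from calls pooled over all libraries, of 50.5% in 28 alpha bins, 21.5% in 29 beta bins and 8.76% in 9 gamma bins, against 12.7%, 5.19% and 3.87% in the measured bins.

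Within each subcluster the coding exons were less methylated than the pooled rest of the subcluster. The pooled Pcdha exons averaged 8.41% against 40.0% in the rest of the alpha subcluster, a difference of -31.5 points. The pooled Pcdhb exons averaged 6.01% against 22.5% in the rest, a difference of -16.4 points, and the Pcdhg exons 3.03% against 18.2%, a difference of -15.2 points. Each difference was negative in 16 of 16 libraries (p = 3.052e-05, exact sign-flip permutation test). The exons were also denser in CpGs, at 4.60, 2.77 and 3.90 CpGs per 100 bp in alpha, beta and gamma against 0.745, 0.680 and 1.03 in the rest, and the part of CpG density in the difference was not tested. Position differed as well, since the rest takes in the more methylated 3′ stretches of alpha and gamma. Up to the end of the Pcdhgc5 exon the gamma subcluster, exons included, averaged 3.69%, and after it 67.8%. From Pcdha1 to the end of the Pcdha12 exon the alpha subcluster averaged 9.72%, and after it 45.0%. The part of position in the difference was not tested either. In the 1 kb upstream of the genes, where the isoform promoters lie, methylation averaged 12.9% in alpha, 12.8% in beta and 3.62% in gamma. In the exons the calls per reference CpG were 1.33, 1.46 and 1.33 times the genome average in the respective subclusters, above the genome average in all 3.

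**Figure D2:**
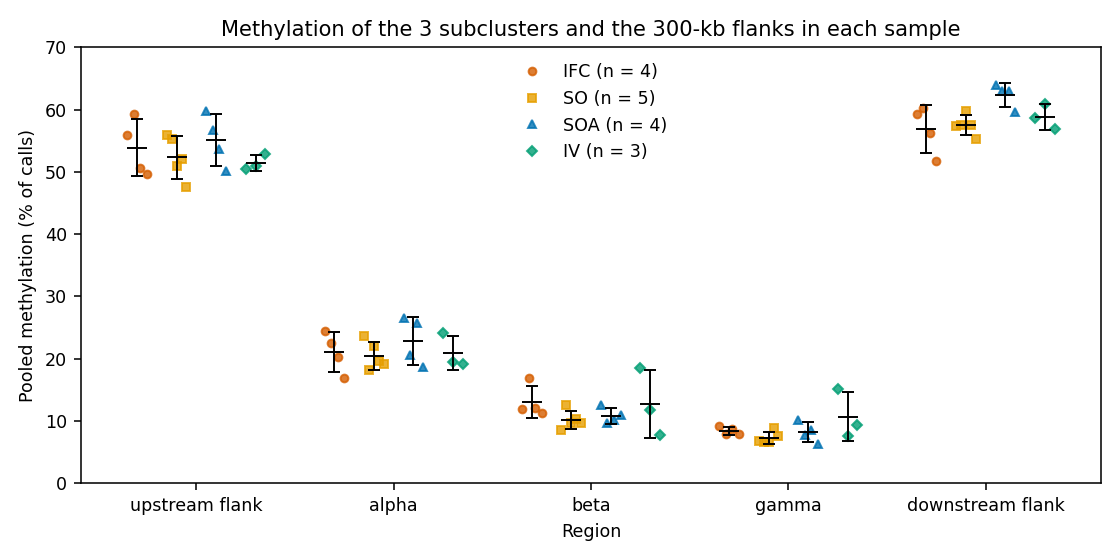
Pooled methylation (%) of the alpha, beta and gamma subclusters and of the upstream and downstream flanks in each of the 16 libraries, with the group mean and SD in black. Subclusters lie between 6.29% and 26.5% and flanks between 47.5% and 63.9%, with no overlap, and the groups overlap within every subcluster.

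The alpha subcluster fell into a low 5′ stretch and a more methylated 3′ stretch. From Pcdha1 to the end of the Pcdha12 exon methylation averaged 9.72%, and after it, over the long introns that hold the C-type genes Pcdhac1 and Pcdhac2 and the constant exons, 45.0%. The 14 exons had a median of 4.68%, with 11 under 10%. The lowest were Pcdha5 (exon at chr18:36960440-36962785, 2.24% on average over the libraries) and Pcdha4 (chr18:36952766-36955150, 2.61%), and the exon of Pcdha5 lay in the lowest alpha bin measured in every library, chr18:36960001-36965000, at 2.66%.

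The highest Pcdha exons were both of the C type, the class of isoforms that many neurons express together rather than by random choice. Pcdhac1 (chr18:37090136-37092571) averaged 38.6%. It read 40.0%, 28.6%, 17.4% and 19.2% in IFC1 to IFC4, 81.8%, 40.0%, 39.0%, 36.2% and 41.8% in SO1 to SO5, 50%, 31.3%, 35.5% and 50.4% in SOA1 to SOA4, and 48.8%, 50.5% and 6.98% in IV1 to IV3. The SO1 value rests on 11 calls and the IV3 value on 43, and every group overlapped with every other. Pcdhac2 (chr18:37143969-37146530) averaged 24.7%, with group means of 22.4%, 23.6%, 27.8% and 25.5% in IFC, SO, SOA and IV and values of 7.69% to 38.7% over all libraries. Pcdha6, at 11.1%, was the only other Pcdha exon above 10%.

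Methylated sequence was also read inside the low 5′ stretch of the alpha subcluster, at both ends of a stretch between the exons of Pcdha7 and Pcdha8. The bin chr18:36985001-36990000 averaged 77.9%, the highest of the alpha bins measured in every library, with group means between 76.1% and 79.7%, and the bin before it averaged 58.3%. Both cover Gm36858, an unprocessed pseudogene at chr18:36980057-36989575. Their sequence is repeat-masked to 70.8% and 74.7%, and their calls per CpG were 0.494 and 0.3997 of the genome average. Nearly all calls lay at the ends of the pseudogene. The 1-kb steps from 36980001 to 36982000 held 220 and 281 calls, and those from 36988001 to 36990000 held 99 and 346. Between them, 36982001 to 36985000 and 36986001 to 36987000 held no call in any library, and the other steps held 8 and 7. The level in the middle was thus hardly measured. Reads that cannot be placed uniquely in repeats are dropped, and the part of that in this stretch was not tested. The neighbouring exons were low, with Pcdha7 at 6.68%, 6.76%, 16.2% and 11.1% and Pcdha8 at 7.26%, 8.07%, 14.3% and 7.70% in IFC, SO, SOA and IV.

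The beta subcluster was low over its genes and mixed between them. Of its bins 2 of the 23 measured in every library were over 20% in the pooled calls, and 18 of the other 29, up to 82.7% in the bin just after Pcdhb7. Of the 22 Pcdhb exons, 20 had at least 5 covered positions in every library, the exceptions being Pcdhb3 and Pcdhb19. Their median was 4.01% and 18 were under 10%. The lowest were Pcdhb12 (chr18:37435803-37438169) at 1.38%, within the lowest beta bin measured in every library, at 1.80%, and Pcdhb1 (chr18:37264998-37267451), the 5′-most beta gene, at 2.21%. Pcdhb9 (chr18:37400955-37403438) averaged 10.6%, with group means of 10.3%, 10.7%, 10.9% and 10.2%, which differed by far less than the SDs of 8.27 to 10.0 points within groups.

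Pcdhb7 was the exception of the beta subcluster and the most methylated exon of all members, at 43.2%. Its exon (chr18:37341813-37344299) fills much of the bin chr18:37340001-37345000, the highest beta bin measured in all libraries, at 44.5%. The exon read 84.0%, 43.8%, 47.3% and 40.3% in IFC1 to IFC4, 54.5%, 75%, 17.3%, 37.3% and 56.0% in SO1 to SO5, 38.5%, 5.26%, 27.3% and 41.0% in SOA1 to SOA4, and 67.7%, 22.0% and 34.3% in IV1 to IV3, on 11 to 81 calls. Values thus ran from near 0 to over 80%, and the groups overlapped, with IFC4 just under SOA4. Group means were 53.8% ± 20.3 (SD, n = 4), 48.0% ± 21.8 (n = 5), 28.0% ± 16.3 (n = 4) and 41.4% ± 23.7 (n = 3).

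The gamma subcluster had the lowest pooled methylation of the 3, and its exons kept within a narrow range. All 22 exons had at least 5 covered positions in every library and all 22 averaged under 10%, with a median of 2.97% and a range of 1.006% to 5.97%. Here the C-type genes did not form a class apart from the rest by level. Pcdhgc3 (chr18:37806548-37808977) was the lowest exon of all members, at 1.006%, within the lowest bin of the interval measured in every library, at 1.18%, while Pcdhgc4 (chr18:37815533-37817983) at 4.96% and Pcdhgc5 (chr18:37819675-37822134) at 5.97% were the highest of the subcluster. Pcdhgb1 (chr18:37680458-37682839) averaged 1.78%, with no methylated call in any of the 4 IFC libraries, which held 9 to 30 calls each.

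**Figure D3:**
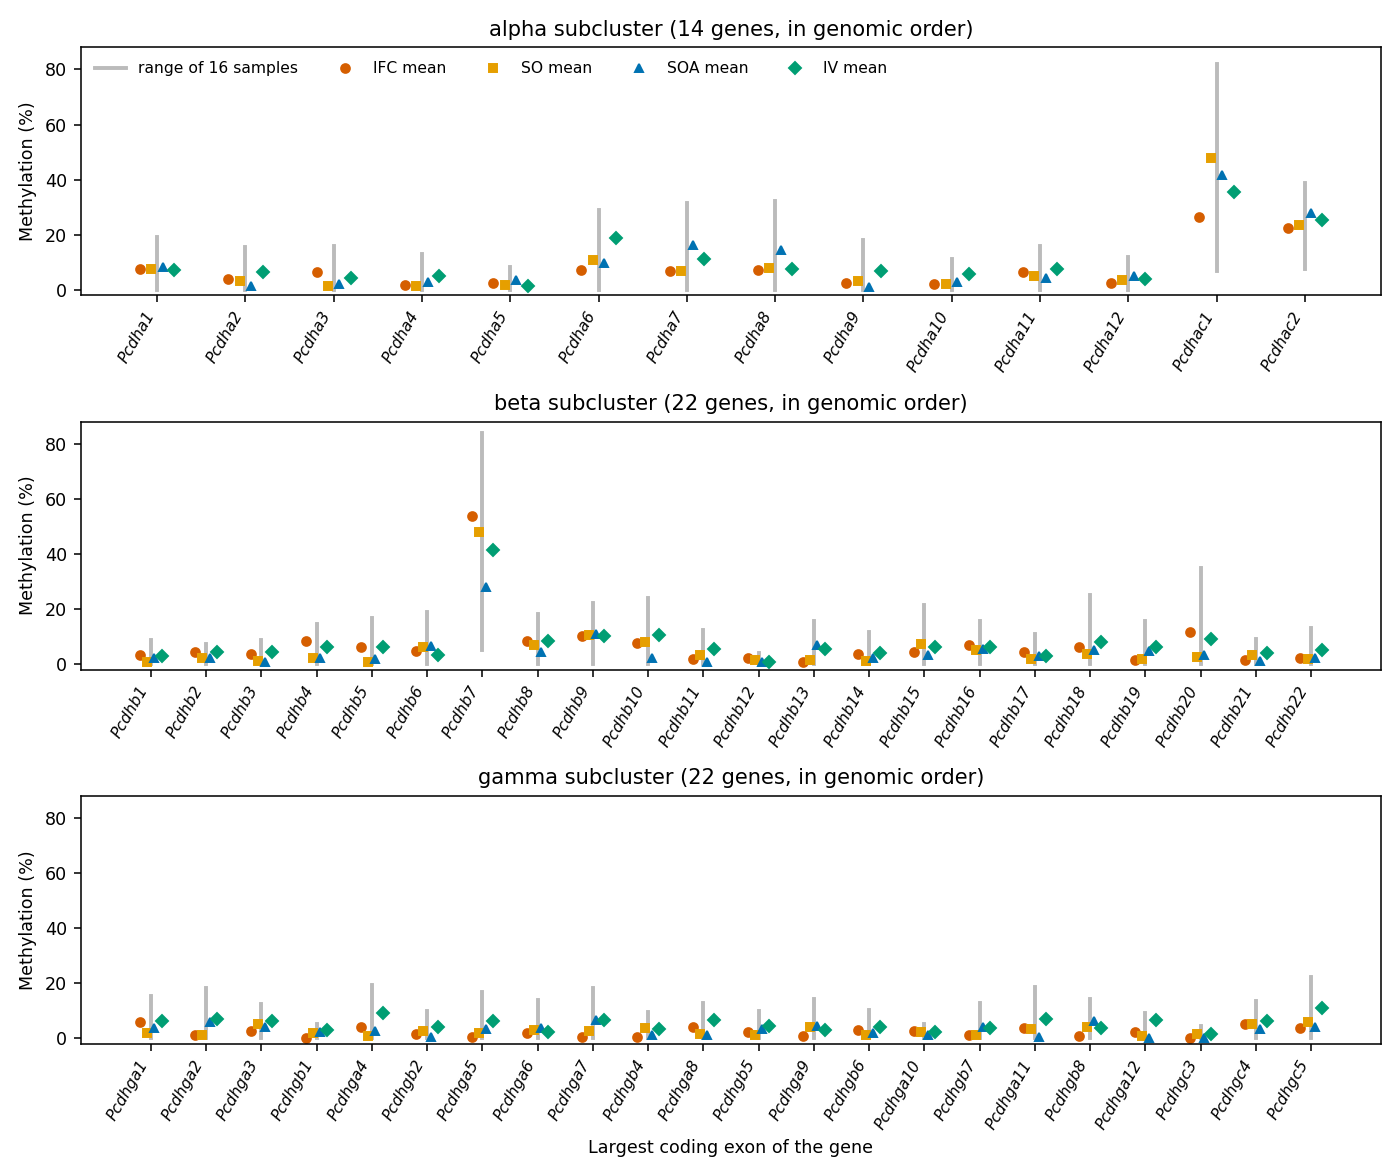
Mean methylation (%) of the largest coding exon of each clustered protocadherin gene in chromosome order, with 1 marker per group and a grey line for the range of the 16 libraries. Of the 58 exons 48 sit below 10% in all 4 groups, and Pcdhb7, Pcdhac1 and Pcdhac2 stand above the rest.

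Over the whole family, 51 of the 56 exons measured in all libraries were under 10%, 5 were between 10% and 80% and none was over 80%, with a median of 3.47%. Exons of similar size and CpG content in other genes (2 to 3 kb with at least 50 CpGs, 177 of 219 measured) took very different levels, with a median of 46.9%, 69 under 10% and 75 over 80%. The 5 above 10% were Pcdhb7, Pcdhac1, Pcdhac2, Pcdha6 and Pcdhb9.

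Methylation of the gamma subcluster changed abruptly at its 3′ end. Up to the end of the Pcdhgc5 exon it averaged 3.69%, and from there to the end of the constant exons 67.8%. In 1-kb steps pooled over all libraries, no step between 37815001 and 37824000 exceeded 13.3%, the step from 37824001 to 37825000 read 52.0% (150 calls), the next read 30.9% (188 calls), and the one after read 96.7% (61 calls). From there to the end of the subcluster steps read 78.1% to 98.6%. The step at 30.9% holds the first constant exon, which every gamma isoform shares, and the highest gamma bin measured in every library, chr18:37835001-37840000, averaged 94.5%. The change lay near the start of Gm38182, a processed transcript annotated at chr18:37823879-37840382. A further methylated bin, at 96.0%, covered Slc25a2, a mitochondrial ornithine carrier gene between the beta and gamma subclusters.

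**Figure D4:**
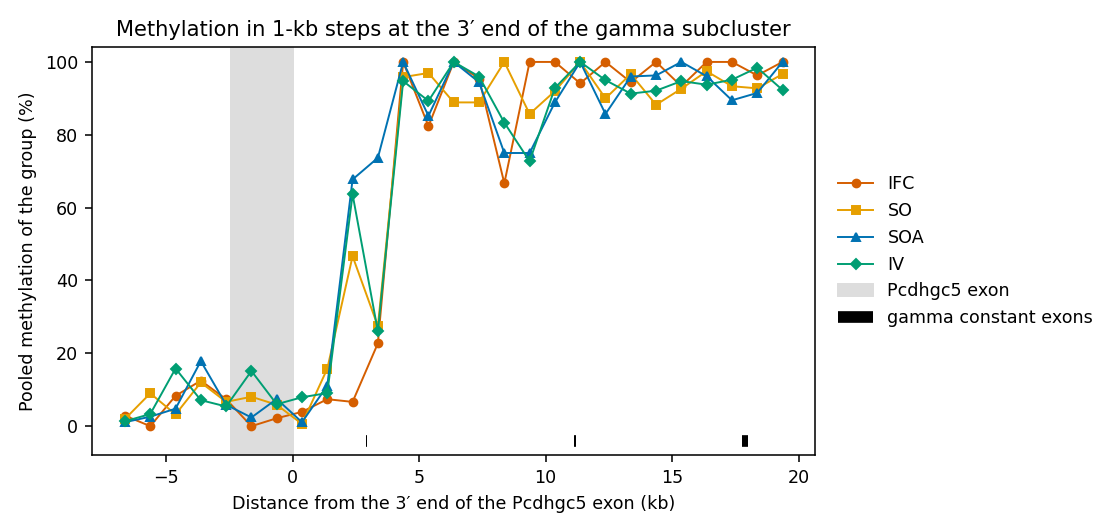
Pooled methylation (%) in 1-kb steps over the 3′ end of the gamma subcluster, against distance in kb from the end of the Pcdhgc5 exon, with 1 line per group and black bars for the constant exons. All 4 groups are low up to Pcdhgc5 and high past the first constant exon, and they lie farthest apart in the 2 steps of the transition, which hold 15 to 96 calls per group.

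Between the groups no difference of a whole subcluster passed after adjustment over the 12 tests, and with so few libraries none could have passed by itself. The comparison of IFC with SO asks about follicle culture, together with donor age and the hormones given, and that of SO with SOA about age together with hormone dose. That of SOA with IV asks about hormonal stimulation, and IFC with SOA sets cultured against adult stimulated oocytes. The alpha subcluster averaged 21.1% ± 3.24 in IFC (n = 4), 20.5% ± 2.25 in SO (n = 5), 22.9% ± 3.81 in SOA (n = 4) and 20.9% ± 2.75 in IV (n = 3). The beta subcluster averaged 13.1% ± 2.63, 10.2% ± 1.46, 10.8% ± 1.24 and 12.7% ± 5.46, and the gamma subcluster 8.42% ± 0.652, 7.31% ± 0.972, 8.18% ± 1.59 and 10.7% ± 3.96. The groups overlapped in all 12 comparisons. SOA minus IV was 1.97 points in alpha, -1.84 in beta and -2.54 in gamma, and 3.56, 1.10 and -0.311 points without IV1, so the beta difference changed sign.

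The widest separation was that of the beta subcluster between IFC and SO. It read 11.9%, 17.0%, 12.1% and 11.3% in IFC1 to IFC4 and 8.63%, 12.6%, 9.74%, 10.3% and 9.73% in SO1 to SO5, so that SO2 lay among the IFC values. The difference of 2.87 points had p = 0.0476 in an exact two-sided permutation test and p = 0.429 after Benjamini-Hochberg adjustment over the 12 subcluster tests. Without IFC2 it was 1.56 points (exact permutation p = 0.125). For the gamma subcluster IFC exceeded SO by 1.11 points (exact permutation p = 0.0714, adjusted 0.429). The other 10 comparisons had adjusted values of 0.648 or more from the same exact permutation tests. With 4 against 5, 4 against 4 and 4 against 3 libraries the smallest p possible is 0.00794, 0.0286 and 0.0286. Even at these values a single difference would not pass the adjustment over 12 tests, so the adjusted values do not show that the subclusters were alike.

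**Figure D5:**
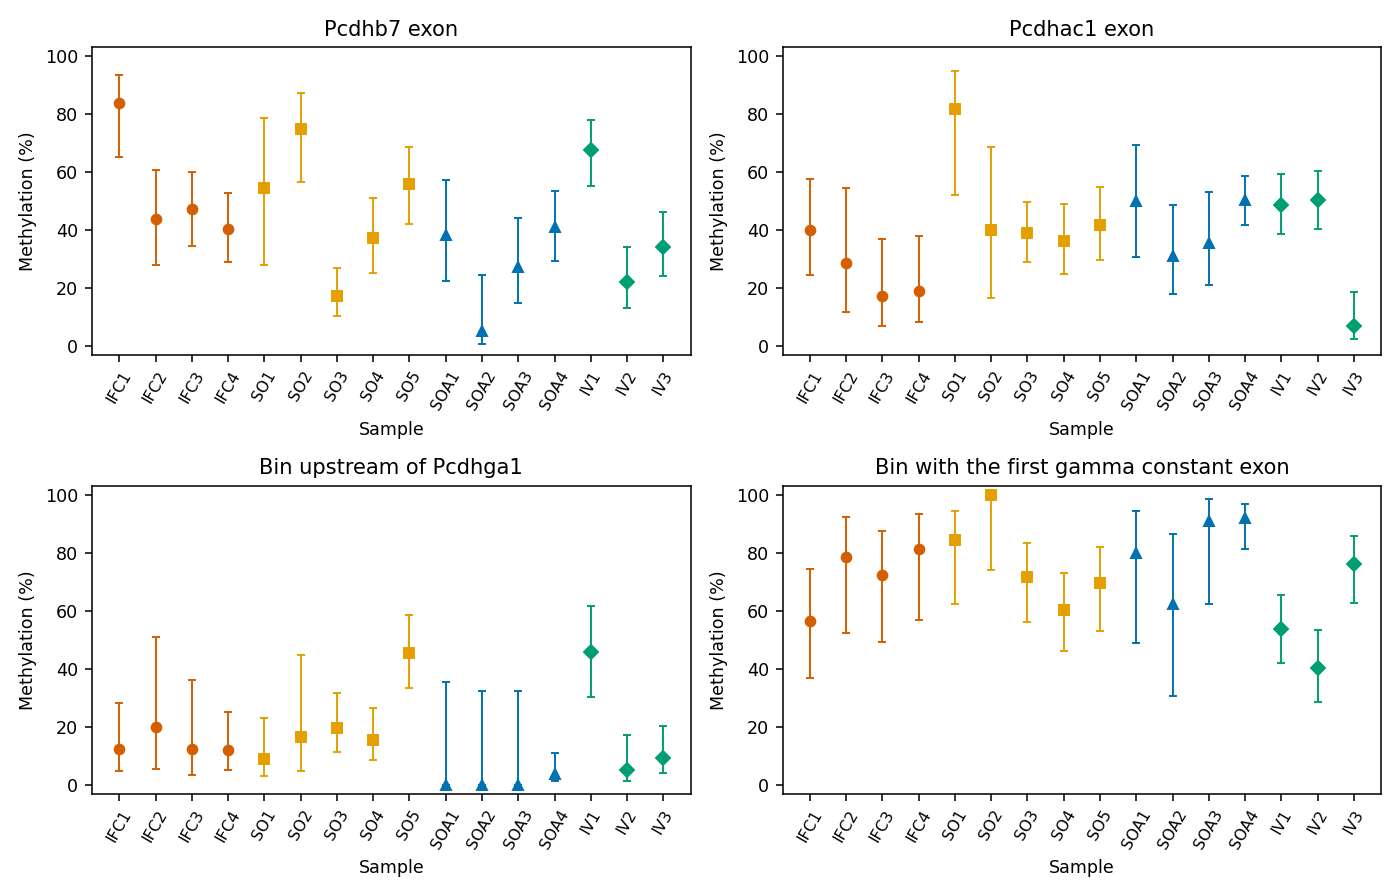
Methylation (%) in each library, grouped as IFC, SO, SOA and IV, of the Pcdhb7 and Pcdhac1 exons, the bin upstream of Pcdhga1 and the bin of the first gamma constant exon, with 1 point per library and its 95% Wilson interval, which covers counting error only. The spread between libraries of a group is wide for Pcdhb7 and Pcdhac1, SOA libraries sit at the bottom for the bin upstream of Pcdhga1, and IV libraries reach lowest for the bin of the first gamma constant exon.

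Feature by feature, few members differed. A bin or exon was called where a logistic likelihood-ratio test on the methylated and unmethylated calls gave a Benjamini-Hochberg adjusted p under 0.05 over all features of the genome and the group means differed by at least 20 points. This test treats calls as independent, so spread between libraries of a group can lower its p. In IFC against SO, 0 of 91 interval bins were called (1.5% of all bins tested), in SO against SOA 1 of 91 (2.32%), in SOA against IV 1 of 102 (0.503%) and in IFC against SOA 0 of 91 (4.22%). Among member exons 0 of 56 (2.52% of all exons tested), 0 of 57 (3.13%), 0 of 58 (1.08%) and 1 of 57 (4.02%) were called in these 4 comparisons. The quasi-binomial F test and limma called 0 bins and 0 exons in each comparison. At an unadjusted p under 0.05 in the logistic test there were 12 of 91, 15 of 91, 28 of 102 and 21 of 91 bins, beside 15.2%, 17.7%, 18.4% and 19.5% of all bins tested. Of member exons 10 of 56, 4 of 57, 16 of 58 and 9 of 57 reached it, beside 19.3%, 22.1%, 21.6% and 21% of all exons tested. The calls were single features. Their shares were below the background except in SOA against IV, where 0.980% of interval bins were called, above 0.503% of all bins. At the unadjusted threshold, interval bins in SOA against IV and in IFC against SOA were above the share of all bins. Member exons in SOA against IV were above the share of all exons, and the other counts were below. The unadjusted counts were not made without IV1.

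The exon called was Pcdhb7 in IFC against SOA. IFC exceeded SOA by 25.8 points (adjusted p = 0.0263, logistic test with Benjamini-Hochberg adjustment), with 3 of the 4 IFC libraries above every SOA library. In an exact permutation test over libraries the same difference had p = 0.0571, and the quasi-binomial F test, which takes in the spread between libraries, gave an adjusted p of 0.564. Without IFC1 (15.8 points, adjusted p = 0.256 in the logistic test), without SOA2 or without SOA3 the exon was not called. SO exceeded SOA by 20.0 points in this exon (adjusted p = 0.431, logistic test), the largest difference of any member exon in that comparison, and SOA lay 13.4 points below IV, or 0.186 points below without IV1, where the IV mean was 28.2%.

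Pcdhac1 moved the other way. IFC was 21.5 points below SO, the largest fall in that comparison, which passed neither the logistic test (adjusted p = 0.133) nor the exact permutation test (p = 0.0635). With replicate number as a block in the logistic test the exon was called there, although these numbers did not pair the libraries. IFC was 15.5 points below SOA, with an adjusted p of 0.0242 in the logistic test with Benjamini-Hochberg adjustment and p = 0.114 in the exact permutation test. Without IFC3, IFC4 or SOA4 the difference from SOA no longer passed the logistic test (adjusted p = 0.149, 0.162 and 0.414), and the quasi-binomial F test gave an adjusted p of 0.362. The 3 lowest IFC libraries were below every SO and SOA library, and IFC1 lay among them. The difference from SOA did not reach 20 points, so this exon was not called with all libraries, and it was called without IFC1 (-20.05 points, adjusted p = 0.00557 in the logistic test). The bin that holds the exon, chr18:37090001-37095000, differed by 15.2 points in the same direction. The exon holds 65 of the 80 CpGs of this bin, so the bin is not a separate observation.

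The bin called in SO against SOA was chr18:37650001-37655000, between Taf7, which encodes a subunit of TFIID, and Pcdhga1, the 5′-most gamma gene. It covers Gm8242, a transcribed processed pseudogene at chr18:37652433-37654172, and no protocadherin exon. It read 8.82%, 16.7%, 19.6%, 15.6% and 45.6% in SO1 to SO5, and 0 in SOA1 to SOA3 (7 or 8 calls each) and 3.90% in SOA4 (77 calls). All SO libraries were above all SOA libraries, by 20.3 points on average (adjusted p = 4.61e-05, logistic test with Benjamini-Hochberg adjustment, and p = 0.0159 in an exact permutation test). The 95% Wilson intervals of the 3 values at 0 reached up to 35.4%, 32.4% and 32.4%, and they cover counting error only.

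In the other comparisons of the same bin, IFC1 to IFC4 read 12.5%, 20.0%, 12.5% and 11.9% and IV1 to IV3 read 45.7%, 5.26% and 9.43%. SOA libraries were thus the lowest of all 16. These comparisons share the SOA libraries for which the bin was named and are given as values only. IFC exceeded SOA by 13.2 points, and SOA was 19.2 points below IV, or -6.38 points for SOA minus IV without IV1. In SO against SOA the difference was 14.2 points without SO5 and 19.98 points without any of SOA1, SOA2 or SOA3, under the limit of 20, and the quasi-binomial adjusted p for all libraries was 0.465.

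The bin called in SOA against IV was chr18:37825001-37830000, which starts with the first constant exon of the gamma genes and lies on the transition described above. It read 80%, 62.5%, 90.9% and 92.0% in SOA1 to SOA4 and 53.9%, 40.4% and 76.0% in IV1 to IV3. The groups overlapped, and the difference was 24.6 points (adjusted p = 0.000355, logistic test with Benjamini-Hochberg adjustment, and p = 0.114 in an exact permutation test). IFC and SO averaged 72.1% and 77.2% there. Within the bin SOA parted from the other groups in the first 1 kb, with 73.7% in SOA (19 calls) against 26.0% in IV (96 calls). IFC and SO read 22.7% (22 calls) and 27.5% (51 calls) there, near IV. In the later 1-kb steps SOA read 85.2% to 100% (4 to 27 calls each) and IV 89.3% to 100% (4 to 28 calls each). A larger part of the IV calls than of the SOA calls thus lay in the first 1 kb. The part of this uneven placement of calls in the called difference was not tested. The call held without IV1 (23.2 points) and was lost without IV2 (16.4 points) and without SOA4 (21.1 points, adjusted p = 0.196 in the logistic test). The quasi-binomial F test gave an adjusted p of 0.786.

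With no limit on the size of the difference, 2, 1, 6 and 3 interval bins had an adjusted p under 0.05 in IFC against SO, SO against SOA, SOA against IV and IFC against SOA, beside 2.99%, 5.66%, 3.37% and 7.52% of all bins tested. Of member exons 0, 0, 6 and 3 did, beside 6.9%, 11%, 7.92% and 10.2% of all exons tested. The 6 exons of SOA against IV were Pcdha2, Pcdha6, Pcdha9, Pcdhga4, Pcdhga12 and Pcdhgc5, all higher in IV, with SOA minus IV at -9.01 to -5.13 points. Without IV1 only Pcdha6 and Pcdhga12 passed, in an alternative added after the data were seen. The share of all exons that passed in that fit is not given, so this count cannot be read against a background. SOA minus IV was then -0.548 points for Pcdha2, -0.0425 for Pcdha9, -1.295 for Pcdhga4 and -0.928 for Pcdhgc5.

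Pcdhga12 (chr18:37766117-37768540) is the last of the A-type genes of the gamma subcluster. It had no methylated call in any SOA library, among 46, 32, 58 and 183 calls, and 8.48%, 2.33% and 9.09% in IV1 to IV3, so all IV libraries were above all SOA libraries by 6.63 points on average (adjusted p = 1.27e-05, logistic test with Benjamini-Hochberg adjustment). Without IV1 the difference was 5.71 points (adjusted p = 0.000800, logistic test). The quasi-binomial F test gave an adjusted p of 0.362. IFC averaged 2.37%, and its difference from SOA passed with all libraries (adjusted p = 0.0315, logistic test) but not in 5 of the 8 fits that left out 1 library (adjusted p up to 0.193). Pcdha6 averaged 9.75% in SOA and 18.8% in IV, with values of 0 to 23.1% in SOA and 11.8% to 28.9% in IV, a difference of -10.6 points without IV1.

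Over all members, 42 of 58 exons were higher in IV than in SOA, with a median difference of -2.26 points for SOA minus IV, beside -0.312 over all exons tested. Without IV1, 25 of 58 were higher in IV and the median was 0.482, beside 0.0111 over all exons. The direction of this shift thus depended on IV1. Medians over member exons in IFC minus SO, SO minus SOA and IFC minus SOA were -0.0870, -0.463 and 0.672 points, beside 0, 0.126 and 0.117 over all exons tested, and 55 of 56, 56 of 57 and 55 of 57 member exons differed by under 10 points. The largest rises and falls not yet named were Pcdhb20 in IFC against SO (9.21 points higher in IFC, where IFC2 alone read 34.8%), Pcdha7 in SO against SOA (-9.41 points) and Pcdha8 in SOA against IV (6.61 points, and 6.89 without IV1), and none passed the logistic test.

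The pooled Pcdha exons averaged 6.87% ± 0.544 in IFC (n = 4), 7.50% ± 1.14 in SO (n = 5), 9.58% ± 1.07 in SOA (n = 4) and 10.4% ± 2.55 in IV (n = 3), or 8.98% in IV without IV1. IFC ranged from 6.13% to 7.29%, SO from 5.49% to 8.2% and SOA from 8.73% to 11.1%, and no test was made of this sum over members. The 2 highest exons, Pcdhac1 and Pcdhac2, entered it at 26.3% and 22.4% in IFC and at 41.8% and 27.8% in SOA. The sum without them was not made. Exon by exon, 10 of 14 were lower and 4 higher in IFC than in SOA, with a median difference of -0.941 points. The pooled Pcdhb exons were at 7.64% ± 1.48 in IFC and 4.73% ± 0.920 in SOA, and without Pcdhb7 at 4.71% ± 1.78 and 3.66% ± 1.19, so this exon carried most of the gap. The pooled Pcdhg exons were at 2.24% ± 0.268 and 2.71% ± 1.82.

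The non-clustered protocadherins, single genes spread over other chromosomes apart from Pcdh1 and Pcdh12 near the cluster, were measured over their gene bodies. In IFC against SO, 5 of 12 were higher and 1 lower at an adjusted p under 0.05 with no limit on the difference, where 20.7% of all gene bodies passed. In SO against SOA 7 were higher and 0 lower (25.6%), in SOA against IV 2 higher and 6 lower (26.4%), and in IFC against SOA 7 higher and 1 lower (30.4%). The median differences were 2.04, 1.99, -2.57 and 2.28 points, beside 0.574, -0.0570, 0.803 and 0.511 over all gene bodies. Without IV1, SOA against IV had 2 higher and 1 lower, where 15.4% of all gene bodies passed, and a median of -0.734 points beside 1.46 over all gene bodies, in an alternative added after the data were seen. The comparisons share libraries and are not independent of each other. The logistic test can pass small differences where a gene body holds many calls. Pcdh15, with 1721 to 7603 calls per library, passed in IFC against SO at 2.11 points, and Pcdh9 passed there at 1.965 points. The part of gene length and call number in these counts was not tested.

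Pcdh19, a delta-protocadherin of neurons on the X chromosome, averaged 22.8%, 16.0%, 8.97% and 11.1% in IFC, SO, SOA and IV, Pcdh11x 45.8%, 41.9%, 33.6% and 35.9%, and Pcdh9 22.2%, 20.2%, 15.4% and 17.1%. These 3 were picked after their values were seen, and all were highest in IFC, as were Pcdh7, Pcdh10, Pcdh15 and Pcdh17. Of the other 5 genes, Pcdh12 was lowest in IFC (9.17%, against 13.4% to 17.1% in the other groups), and Pcdh1, Pcdh8, Pcdh18 and Pcdh20 were highest in IV, of which only Pcdh20 was so without IV1. SOA was lowest for the 3 picked genes with every library, but without IV1 the IV mean of Pcdh9 was 14.9%, below SOA, while those of Pcdh19 and Pcdh11x were 9.75% and 34.3%, above it. None of the 12 was called at 20 points and an adjusted p under 0.05, as 1.09%, 1.49%, 0.941% and 2.76% of all gene bodies were in the 4 comparisons. Gene bodies of the 12 averaged from 3.53% (Pcdh1) to 72.5% (Pcdh15) over all libraries.

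Of 16 genes that act on the clusters in somatic cells, among them Ctcf, the cohesin subunits Rad21 and Smc3, Smchd1 and the methyltransferase genes Dnmt3a and Dnmt3b, 0 gene bodies were higher and 0 lower at an adjusted p under 0.05 in IFC against SO, 2 and 1 in SO against SOA, 4 and 2 in SOA against IV (3 and 1 without IV1) and 4 and 1 in IFC against SOA, with none past 20 points. The shares of all gene bodies that passed this threshold were 20.7%, 25.6%, 26.4% and 30.4%. In SOA against IV without IV1 the share was 15.4%, and the genes that passed there were a larger share of the 16.

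Of 26 other protein-coding gene models in the interval and its flanks, 3 (Gm42416, Gm37013 and Gm37388) span much of the protocadherin cluster itself and were set aside after the data were seen. Of the other 23, 21, 20, 20 and 20 could be tested in IFC against SO, SO against SOA, SOA against IV and IFC against SOA. The numbers higher and lower at the same threshold were 3 and 2, 2 and 1, 4 and 0 (2 and 0 without IV1), and 4 and 3, near or below the shares over all gene bodies just given. Only Slc35a4, a nucleotide sugar transporter gene, was past 20 points, at 21.2 points lower in IFC than in SO (adjusted p = 3.61e-05, logistic test with Benjamini-Hochberg adjustment).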

How the data were processed

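CpG methylation was measured by PBAT in 16 libraries of pooled MII oocytes. The authors trimmed reads, aligned them to GRCm38 and removed duplicates, with Trim Galore 0.4.4, cutadapt 1.9.1 and Bismark 0.19.0 named in the submitters' processing notes, and deposited, for each covered cytosine, the number of calls read as methylated and as unmethylated (counts), with the percent methylation they give. Only the counts were used. They were summed within features of each library: 5-kb bins, the largest coding exon of each gene (GENCODE M21 annotation, with 1 Pcdha gene renamed after RefSeq by position) and gene bodies. A percentage is the methylated share of all calls in a feature in 1 library, and group values are means over libraries.

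Features needed at least 5 covered positions in every library of both groups. They were tested by logistic likelihood-ratio tests with group as the only term (numpy 2.4.6, scipy 1.17.1, Python 3.11.15), with Benjamini-Hochberg adjustment over all features tested, and called at an adjusted p under 0.05 with at least 20 points of difference. The code was tested on simulated data first. Subclusters were compared by exact two-sided permutation tests. Alternatives included limma 3.58.1 in R 4.3.3, a quasi-binomial F test, other minima and thinning. Libraries are separate pools. P-values of the permutation tests measure the spread between pools, and those of the logistic test treat calls as independent. Same-numbered libraries of different groups correlated at -0.0350 to 0.0716 over 7297 bins, so the numbers did not pair them. The named genes were those highest and lowest in each subcluster, the 5 C-type genes, any called, and the largest difference each way in each comparison. The exons of Pcdha2, Pcdha6, Pcdha9, Pcdhga4 and Pcdhga12, and the differences within the transition at the gamma constant exons, were singled out after their values were seen. The members and gene lists were chosen with earlier results of these data known. Intervals are 95% Wilson intervals and cover counting error only.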

Additional observations from a re-analysis of the deposited data

Results flagged for a closer look

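In 56 groups of 4 or 5 libraries examined, 9 held 1 library far from the others of its group by Dixon's criterion, which chance meets in about 1 in 20 groups. That rate is for normally distributed values of features not picked by their values. Many exons here were named for their level or difference and rest on few calls, so the 9 cannot be read against it. In the beta subcluster IFC2 read 16.99%, the other IFC libraries 11.4% to 12.1%. The Pcdhac2 exon read 34.9% in SOA2 and 25.0% to 26.2% in the other SOA libraries, and the Pcdhac1 exon 81.8% in SO1 on 11 calls and 36.2% to 41.8% in the other SO libraries. The Pcdhb7 exon read 84.0% in IFC1 on 25 calls and 40.3% to 47.3% in IFC2 to IFC4. The Pcdhb20 exon read 34.8% in IFC2 on 23 calls and 0 to 5.88% in the others.

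In the other 4 the remaining libraries of the group had no methylated call at all, so the separate library differed by a few calls. The Pcdhb12 exon read 3.61% in SOA4, the Pcdhb1 exon 8.82% in SOA2, and the Pcdhgc3 exon 0.952% in IFC4 and 1.23% in SOA4.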

How the results depend on the processing

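All 15 alternatives of the 6 differences within libraries (subclusters against flanks, exons against the rest) kept direction and side of the threshold. Of 140 alternatives of the 12 subcluster differences 121 did so. Among them, the replicate block (a sign flip over 3 or 4 pairs) could not reach p under 0.05. Nor could the fits of SOA against IV that left out 1 library. For differences that did not pass in the main test the side of the threshold was thus fixed in advance there, and only the direction could change. For the beta subcluster in IFC against SO the difference was 2.23 points with the mean of position percentages (exact permutation p = 0.0714) and 1.56 to 3.46 points leaving out 1 library at a time. With the replicate block it was 2.75 points (exact sign-flip permutation p = 0.125). That is the smallest p that 4 pairs allow, so this alternative could not pass, and the numbers did not pair the libraries. Positions with at least 3 calls turned the gamma subcluster in IFC against SO to -6.85, the beta subcluster in SO against SOA to 4.84 and the alpha subcluster in SOA against IV to -0.639 points, and 7 of the 12 subcluster differences and all 6 differences within libraries had no value there because a library had no such position. Leaving out 1 library gave -0.589 to 1.93 points for alpha and 0.865 to 1.5 for gamma in IFC against SO, -4.30 to 1.10 for beta in SOA against IV, and -0.385 to 0.885 for gamma in IFC against SOA, where 2 of the 8 were below 0 (-0.00321 and -0.385). Those ranges cross 0 for alpha without IFC1 (-0.589) and without SO2 (-0.0296), and for beta without IV1 (1.10).

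With no limit on the difference, called bins were 2 in IFC against SO, 6 in SOA against IV and 3 in IFC against SOA, and called exons 6 in SOA against IV and 3 in IFC against SOA. Without IV1 and the limit, chosen after seeing the data, SOA against IV had 3 bins and 2 exons. The shares of all bins and exons in that fit are not given, so these counts cannot be read against a background. In SO against SOA 0 bins were called under the quasi-binomial F test, limma, at least 20 covered positions, thinning to the shallowest library or the mean of position percentages, and without SO5, SOA1, SOA2 or SOA3. In SOA against IV 0 were called under the quasi-binomial F test, limma, at least 20 positions, thinning, bins shifted by 2500 bp or the replicate block, and 0 to 2 leaving out 1 library. In IFC against SOA the shifted bins gave 1, and leaving out 1 library gave 0 to 2. Exons called in IFC against SOA were 0 under the quasi-binomial F test, limma, at least 20 positions or thinning, and 0 to 1 leaving out 1 library, and without IFC1 the exon called was Pcdhac1. The replicate block called 1 exon in IFC against SO, Pcdhac1, and leaving out 1 library called 0 to 1 there, in SO against SOA and in SOA against IV. The causes of these changes were not tested. Among single features 141 of 241 alternatives kept their side of the threshold, 100 lost it and 0 reversed. Depth limits most exons of the shallow libraries to few calls, and IFC and SOA are mostly shallow.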

Other observations

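Downstream of the gamma subcluster, outside the members, a stretch ahead of Pcdh1 on the chromosome held several bins that differed between the groups. At chr18:38095001-38100000 methylation averaged 28.4% (IFC), 51.4% (SO), 78.4% (SOA) and 79.63% (IV). With the groups taken in that order it averaged, at chr18:38085001-38090000 61.0%, 83.2%, 95.6% and 87.96%, and at chr18:38110001-38115000 20.1%, 26.0%, 61.1% and 52.5%. IFC was lowest in these 3 bins, which were picked after their values were seen and were called by the logistic test in 1 or more comparisons. In the next bin, chr18:38115001-38120000, called in SO against SOA, IFC was above SO (9.78%, 5.06%, 29.4% and 24.7%). Of the downstream flank bins tested, 3 of 50 were called in IFC against SO (1.5% of all bins), 3 of 48 in SO against SOA (2.32%), 0 of 53 in SOA against IV (0.503%) and 7 of 49 in IFC against SOA (4.22%). At 20 points and with the same test, no bin of the interval was called in IFC against SO or IFC against SOA. The difference between the flank and the interval was not tested.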
